A study of Mus musculus with 4 samples.

Results

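Levels of 8 genes of the TNF receptor superfamily, Tnfrsf1a, Tnfrsf25, Tnfrsf1b, Tnfrsf14, Tnfrsf4, Tnfrsf18, Tnfrsf9 and Cd27, were examined in group 3 innate lymphoid cells (ILC3s), tissue lymphocytes that lack rearranged antigen receptors. The genes were taken by name, and all 8 had a row in both tables used, among 15242 rows for the first pair of libraries and 12546 for the second. The 8 genes, and the gene lists set beside them below, were chosen with earlier results of these data known. Their shares beside all measured genes are therefore descriptive. The first pair held ILC3s of Il17d-KO mice and of wild type (WT) mice; the second held CD93-positive and CD93-negative ILC3s, which the series' design text places in WT mice. All 4 groups were from small intestine at steady state, with 1 library each. Per the series' design text, ILC3s were sorted as live cells with low CD45, high CD90.2 and no CD3, among other gates. The protocol in the labels gives 12 h of culture with no stimulus ahead of the CD93 sort, and it is attached to all 4 libraries. The sources used here do not give the Il17d allele, the strain, the age of the mice or how many mice went into a library, nor whether the KO and WT cells were cultured.

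Receptors of this superfamily sit at the cell surface and bind ligands of the TNF superfamily, most of them also membrane proteins. They signal through TRAF adaptor proteins to NF-kB and MAP kinases, and those with a death domain can also start cell death. Several, such as OX40, GITR, 4-1BB and CD27, are best known as costimulatory receptors of T cells and NK cells, and some of them appear at the surface only after activation. In the gut, ILC3s receive TNF family signals and are themselves a source of TNF family ligands, among them lymphotoxin and RANKL.

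Values are FPKM, fragments per kilobase of gene scaled to a library total. With 1 library a group, no difference has a replicate check and no p-value is given. Genes that reached 1 FPKM in a library of the pair were counted as measured, which held for all 8 receptors in both pairs. Differences are log2 of FPKM + 1, which understates the differences of genes at low levels, and a difference of at least 1 was counted as 2-fold. Read numbers recovered from the FPKM were whole for all 8 genes in all 4 libraries, and the 95% intervals given for FPKM ratios come from them; they cover counting error only and compare libraries, not conditions. The totals behind the scaling, inferred from the FPKM, came to 27002582 for KO and 26087274 for WT, and to 11712846 for CD93-positive and 11790580 for CD93-negative cells. Whether they are sequenced reads or adjusted library sizes is not known. No check of the genotype by Il17d was made, as that gene was not analysed here. Cd93 stood at 155.0 FPKM in CD93-positive cells, against 79.9 in CD93-negative cells, a difference of 0.95 that is under the 2-fold limit, so its RNA was also present in the CD93-negative library. In the first pair Cd93 had 20.5 FPKM in KO and 43.5 FPKM in WT, 2.12-fold lower in KO (2.04 to 2.20). That difference of -1.05 was past the limit. Il7r and Il23r, the receptor genes by which ILC3s sense IL-7 and IL-23, had FPKM of 42.7 or more in every library. In such bulk libraries, fewer cells of a type and less RNA per cell cannot be told apart.

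Tnfrsf9, which encodes 4-1BB (CD137), was lower in KO than in WT ILC3s by 2.64-fold and higher in CD93-positive than in CD93-negative ILC3s by 2.15-fold. On the deposited scaling it was the only receptor of the 8 past 2-fold in both pairs; with either scaling to the sums it was past it in the first pair alone. Tnfrsf18, which encodes GITR, and Cd27 were lower in the CD93-positive cells, by 2.49-fold and 4.41-fold. Promoter windows of these 3 genes are shown because they carry the differences of 2-fold or more. They run from 250 bases before to 50 bases after a RefSeq start site (GRCm38.p6; mm10 is the browser name of GRCm38), and capitals mark matches to the motifs searched on both strands: the NF-kB consensus, the AP-1 motif TGANTCA and the RUNX motif TGTGGT.
Tnfrsf9, chr4:150927749-150928048, plus strand: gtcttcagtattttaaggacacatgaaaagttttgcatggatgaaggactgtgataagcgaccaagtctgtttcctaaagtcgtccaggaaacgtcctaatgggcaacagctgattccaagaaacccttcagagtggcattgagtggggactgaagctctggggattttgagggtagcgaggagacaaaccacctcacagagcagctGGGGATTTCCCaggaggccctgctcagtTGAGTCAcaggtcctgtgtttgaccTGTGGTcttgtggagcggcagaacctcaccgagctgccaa
Tnfrsf18, chr4:156026072-156026371, plus strand: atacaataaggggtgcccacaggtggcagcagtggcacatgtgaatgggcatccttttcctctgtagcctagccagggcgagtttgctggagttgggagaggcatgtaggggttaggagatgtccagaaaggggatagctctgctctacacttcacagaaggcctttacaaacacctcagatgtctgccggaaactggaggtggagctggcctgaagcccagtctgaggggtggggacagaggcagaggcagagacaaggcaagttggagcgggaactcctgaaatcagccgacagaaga
Cd27, chr6:125236978-125237277, minus strand: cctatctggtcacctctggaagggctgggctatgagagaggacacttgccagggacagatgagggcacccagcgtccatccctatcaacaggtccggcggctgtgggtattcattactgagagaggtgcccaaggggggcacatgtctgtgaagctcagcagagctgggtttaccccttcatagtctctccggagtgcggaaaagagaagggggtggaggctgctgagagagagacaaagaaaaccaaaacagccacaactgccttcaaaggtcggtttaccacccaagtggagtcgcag

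The Tnfrsf9 window held matches to all 3 motifs. The NF-kB consensus matched at 2 overlapping positions from base -43 to base -33 relative to the start site, the AP-1 motif from -15 to -9 and the RUNX motif from 11 to 16, with no overlap between different motifs. Among 32851 mouse promoter windows of this length, 4.51% held the NF-kB consensus, 7.81% the AP-1 motif and 16.8% the RUNX motif. The windows of Tnfrsf18 and Cd27 held no match. RefSeq gives 10 windows for the 8 genes. A further Tnfrsf9 window, upstream of the one shown, had no match, and of the other genes only Tnfrsf25 had any, the RUNX motif in 1 of its windows. A match describes the sequence and is not a bound site, and which start site was used in these cells cannot be read from gene totals.

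The receptors also share their place in the genome: 6 of the 8 lie on the distal part of mm10 chromosome 4 and 2 on chromosome 6. Tnfrsf4 (156013843 to 156016612) and Tnfrsf18 (156026164 to 156028895) are neighbours on the plus strand of chromosome 4, with 9551 bases and 0 other protein-coding genes between them. Tnfrsf9, Tnfrsf25, Tnfrsf14 and Tnfrsf4 follow each other on chromosome 4 with 13, 29 and 40 protein-coding genes between one and the next, and Tnfrsf1b lies beside Tnfrsf8, a family gene outside the 8. On chromosome 6, Cd27 (125232622 to 125237010) and Tnfrsf1a (125349362 to 125362484) lie on either side of Ltbr, the lymphotoxin beta receptor gene. Of the 1524 exon bases of Tnfrsf18, 414 are shared with Gm16008, a gene on the opposite strand. The sources used here do not say whether the counting used strand, so the level of Tnfrsf18 is uncertain to that extent. Cd27 shares 129 of 2328 exon bases with a microRNA gene on its own strand, and the other 6 receptors share none.

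The FPKM, a level per gene length, put 1 receptor above the next by 4.03 times in the KO, 7.63 in the WT, 4.53 in the CD93-positive and 3.88 in the CD93-negative library. In the KO library Tnfrsf18 came first, followed by Tnfrsf4, Tnfrsf1b, Tnfrsf25, Tnfrsf14, Tnfrsf1a, Tnfrsf9 and Cd27. The levels of Tnfrsf1a and Tnfrsf9 there could not be told apart within counting error (ratio 1.03, 0.910 to 1.16). In the WT library the order was Tnfrsf18, Tnfrsf9, Tnfrsf1b, Tnfrsf4, Tnfrsf25, Tnfrsf1a, Tnfrsf14 and Cd27. Tnfrsf9 and Tnfrsf1b had a ratio of 1.04 (0.972 to 1.12) and Tnfrsf1a and Tnfrsf14 one of 1.08 (0.896 to 1.30), so neither pair of neighbours had an interval above 1. Tnfrsf9 thus stood in place 7 in the KO and place 2 in the WT library.

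In CD93-positive ILC3s Tnfrsf9 came first, followed by Tnfrsf25, Tnfrsf1b, Tnfrsf14, Tnfrsf1a, Tnfrsf18, Tnfrsf4 and Cd27, and each level lay above the next by more than counting error. In CD93-negative ILC3s the order was Tnfrsf9, Tnfrsf25, Tnfrsf1b, Tnfrsf14, Tnfrsf18, Tnfrsf1a, Cd27 and Tnfrsf4. Here Tnfrsf25 and Tnfrsf1b (1.04, 0.981 to 1.09), Tnfrsf18 and Tnfrsf1a (1.08, 0.942 to 1.23) and Cd27 and Tnfrsf4 (1.00, 0.731 to 1.38) could not be told apart. Tnfrsf9 held rank 24 of all 12546 rows in CD93-positive and rank 64 in CD93-negative cells. Levels are not set across the pairs, whose tables were made with different gene sets.

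**Figure D1:**
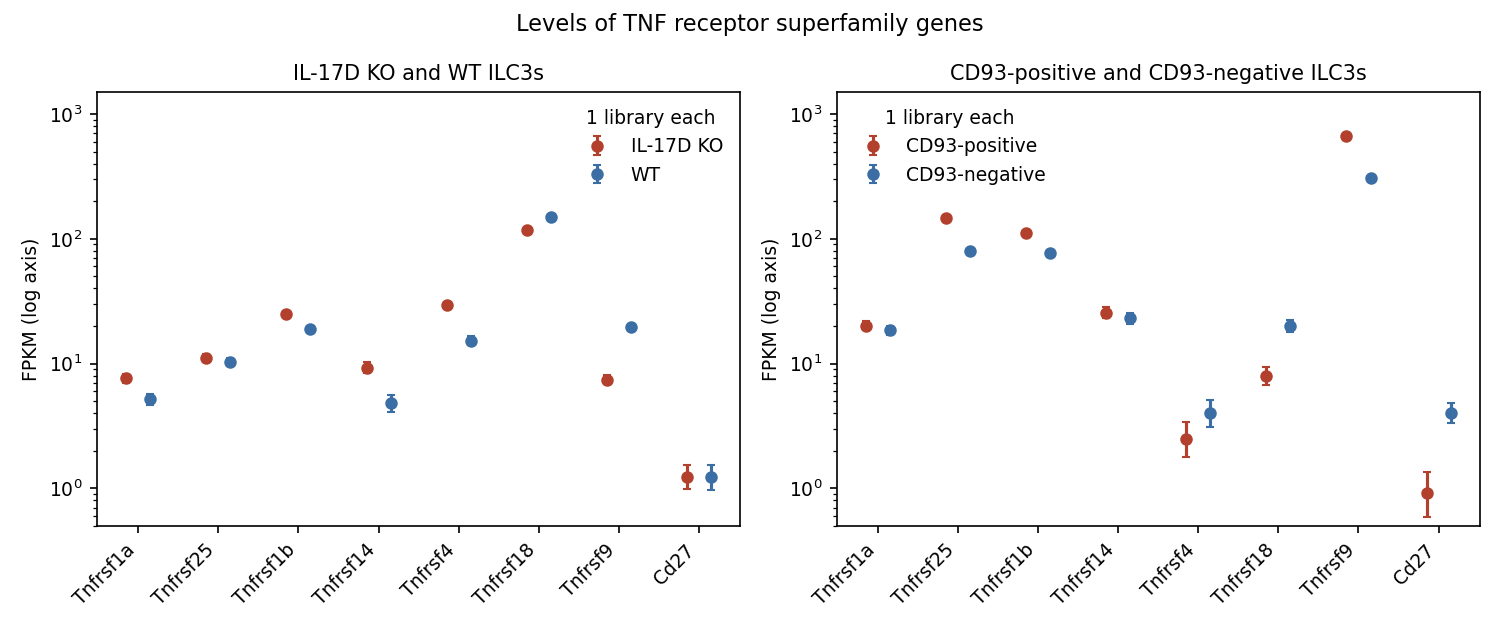
FPKM (log axis) of the 8 receptor genes in KO and WT ILC3s (left) and in CD93-positive and CD93-negative ILC3s (right). Each point is 1 library and bars are 95% counting intervals; Tnfrsf18 was the highest of the 8 in both libraries on the left (118 and 149), Tnfrsf9 in both on the right (664 and 309).

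The first comparison asks how the loss of IL-17D, a cytokine of the IL-17 family, is reflected in ILC3s. Past the 2-fold limit lay 1 of the 8 receptors, Tnfrsf9, on the lower side in KO ILC3s, while 29.3% of all 12376 measured genes were at least 2-fold apart (16.6% higher and 12.7% lower), so the members' share was not above the background. Their median difference was 0.25, beside 0.01 over all measured genes, with 6 of the 8 above 0. Scaling the libraries to a common sum as in TPM moved these medians to 0.42 and 0.17.

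Among the receptors with a death domain, Tnfrsf1a, which encodes TNFR1 and binds TNF and lymphotoxin alpha, had 7.62 FPKM in KO and 5.16 FPKM in WT ILC3s, a ratio of 1.48 (1.29 to 1.69). Tnfrsf25, which encodes DR3, the receptor of TL1A, had 11.1 in KO and 10.3 in WT (ratio 1.08, 0.964 to 1.20). The interval for Tnfrsf25 includes 1, and that for Tnfrsf1a lies above it. TNFR2, the TNF receptor without a death domain, is encoded by Tnfrsf1b, with 25.1 FPKM in KO and 18.8 FPKM in WT and a ratio of 1.34 (1.26 to 1.42). The ratio of Tnfrsf1b to Tnfrsf1a within a library, which does not depend on scaling, was 3.29 in KO and 3.63 in WT, and the KO value was 0.906 times the WT value (0.780 to 1.05).

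Tnfrsf14 encodes HVEM, which binds the TNF family ligand LIGHT and the immunoglobulin family receptor BTLA. It had 9.30 FPKM in KO and 4.80 FPKM in WT ILC3s from 361 and 180 reads, a ratio of 1.94 (1.62 to 2.33). Tnfrsf4, the gene of OX40, a costimulatory receptor bound by OX40L, had 29.4 in KO and 15.3 in WT, a ratio of 1.92 (1.73 to 2.14). Both lay under the 2-fold limit on the scale of FPKM + 1 (0.83 and 0.90). With the common sum as in TPM both passed it (1.04 and 1.09), and with the mean of the 2 sums as the common total Tnfrsf4 did and Tnfrsf14 did not. Of measured genes with 100 to 1000 reads over the pair, where Tnfrsf14 lies, 40.8% passed the 2-fold limit.

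Tnfrsf18 was lower in KO by less than 2-fold, with 118 FPKM in KO and 149 FPKM in WT (ratio 0.794, 0.764 to 0.825). Its genomic neighbour Tnfrsf4 had the higher value in KO, and the ratio of Tnfrsf18 to Tnfrsf4 was 4.03 in KO and 9.75 in WT, 2.42-fold lower in KO (2.17 to 2.71). Cd27, whose product binds CD70 and marks subsets of T cells, B cells and NK cells, had 1.24 in KO and 1.23 in WT from 78 and 75 reads. Its ratio of 1.00 had an interval of 0.722 to 1.40, so a difference within that range was not detectable at this depth.

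Tnfrsf9 (ENSMUSG00000028965.13; mm10 chromosome 4, 150914562 to 150946102, plus strand) had 7.41 FPKM in KO and 19.6 FPKM in WT ILC3s, from 545 and 1389 reads. It was 2.64-fold lower in KO (2.39 to 2.92), a difference of -1.29. 4-1BB is induced on T cells and NK cells by activation and binds 4-1BBL. Among measured genes with 1000 to 10000 reads over the pair, 13.5% passed the 2-fold limit. With a pseudocount of 5 the difference was -0.98 and lay just inside the limit. The ratio of Tnfrsf4 to Tnfrsf9, a pair chosen after the values were seen, was 3.97 in KO and 0.782 in WT, 5.07-fold higher in KO (4.39 to 5.87).

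**Figure D2:**
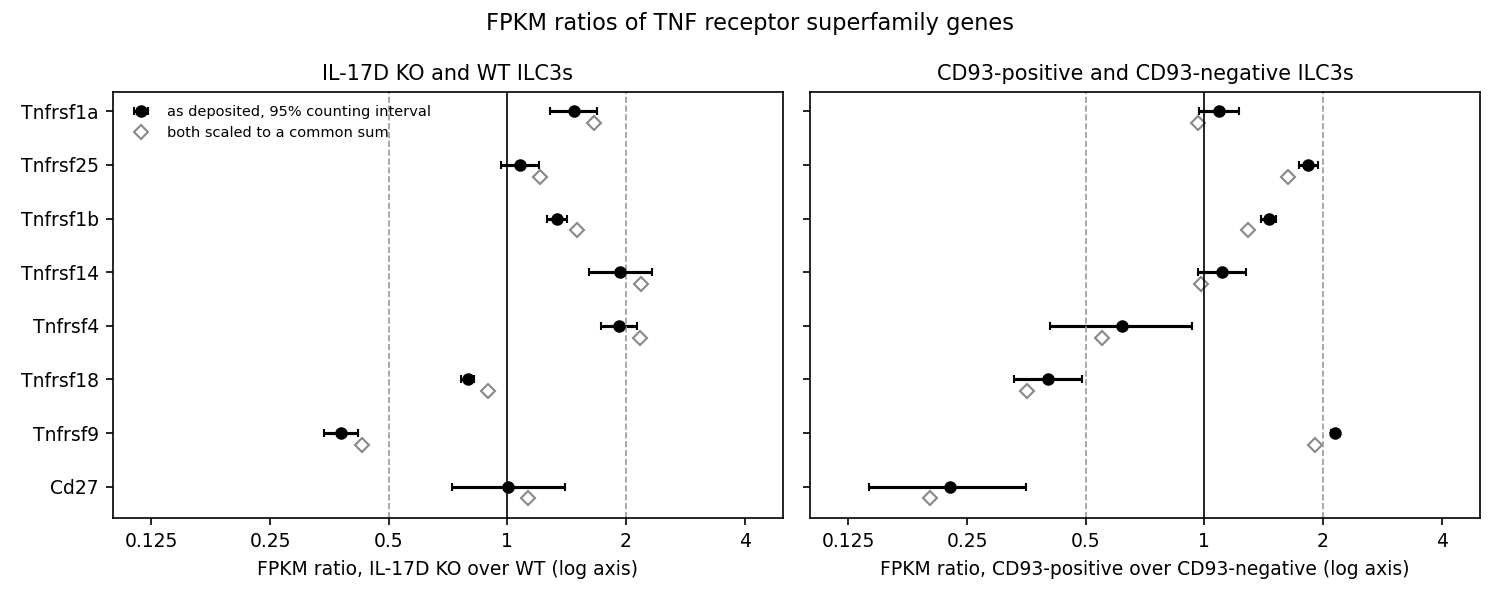
FPKM ratio (log axis) of each receptor gene, KO over WT (left) and CD93-positive over CD93-negative (right). Filled points are deposited values with 95% counting intervals, open diamonds the same libraries scaled to a common sum, and dashed lines 2-fold; Tnfrsf9 lies at 0.379 on the left and 2.15 on the right, and in the right panel Tnfrsf1a and Tnfrsf14 lie above 1 as deposited and below it with the common sum.

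Genes listed as markers of other cell types also differed between the KO and WT libraries. Summed levels of a list are over all its tabulated genes. Of 12 T cell genes, 9 passed 2-fold upwards in KO and 0 downwards, with a summed level of 337 FPKM in KO and 163 FPKM in WT and no gene at 0 in either. Of the genes of regulatory T cells, which carry OX40, GITR and 4-1BB, Ctla4, Ikzf2 and Il2ra were tabulated, with differences from -0.25 to -0.13 and a summed level of 112 FPKM in KO and 126 FPKM in WT. Foxp3 is not analysed here for this pair. Of 7 measured genes of ILC1s or NK cells, 4 passed 2-fold upwards and 0 downwards, with 239 FPKM summed in KO and 136 FPKM in WT. Of 6 measured ILC2 genes, Gata3 and Il17rb passed 2-fold upwards and Areg downwards (median 0.04). That list summed to 162 FPKM in KO and 118 FPKM in WT. The lists with the largest medians were not of lymphocytes. Of 6 measured genes of intestinal epithelium, Krt8, Krt18, Lyz1 and Tff3 passed 2-fold upwards and 0 downwards (median 1.98), with 178 FPKM summed in KO and 51.4 FPKM in WT. Of 4 measured myeloid genes, Lyz2, Cd68 and Cd14 passed 2-fold upwards and Xcr1 downwards (median 2.05), with 59.1 FPKM summed in KO and 13.5 FPKM in WT. Of 11 measured ILC3 genes, 0 passed 2-fold either way (median -0.11). Whether the genes of the other lists came from other cells or from the sorted ILC3s cannot be told in bulk libraries. The part of other cells in the levels of Tnfrsf4, Tnfrsf14 and Tnfrsf9 was not tested.

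The second comparison asks how ILC3s sorted as positive for CD93, reported as a receptor of IL-17D, differ from those sorted as negative. Past the 2-fold limit lay 3 of the 8 receptors, Tnfrsf9 on the higher side and Tnfrsf18 and Cd27 on the lower side in CD93-positive ILC3s, while 4.43% of all 10117 measured genes were at least 2-fold apart (2.49% higher and 1.94% lower). The median difference of the 8 was 0.13, beside 0.04 over all measured genes. With the mean of the 2 sums as the common total these medians were -0.04 and -0.12, and with the common sum as in TPM -0.04 and -0.15. The members lay on both sides of 0, from -1.40 for Cd27 to 1.10 for Tnfrsf9.

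**Figure D3:**
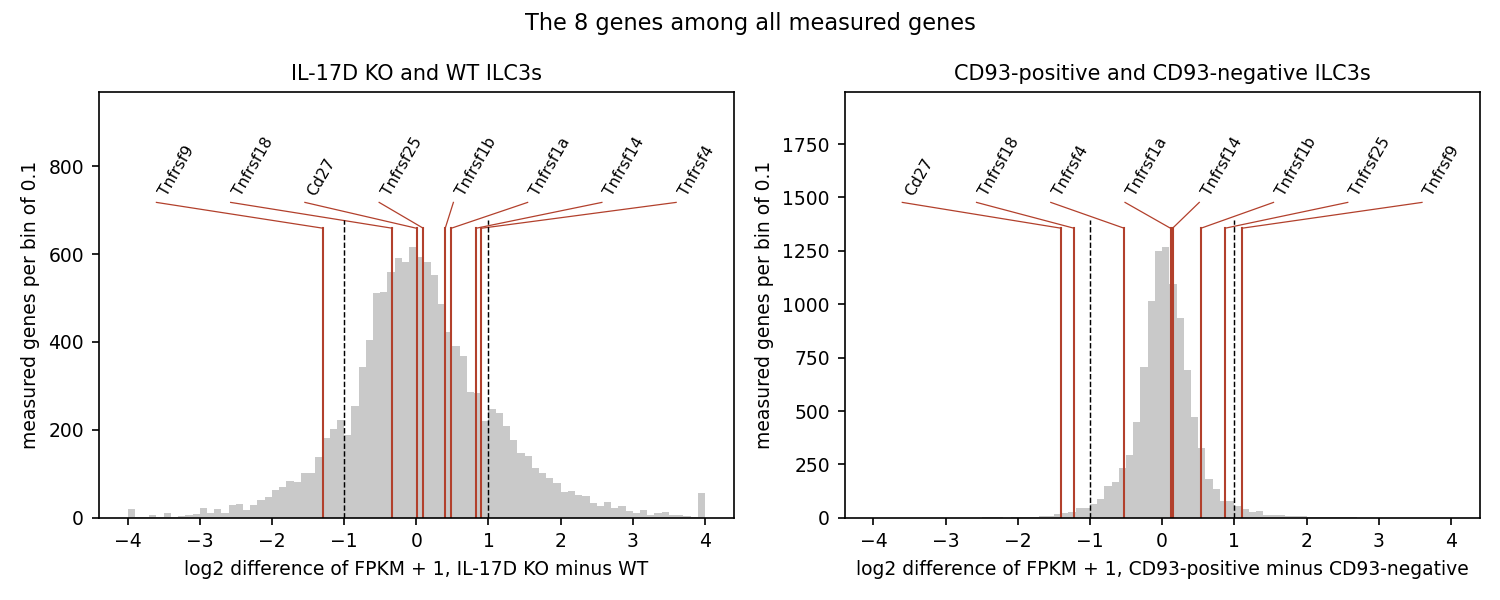
Number of measured genes (vertical axis) by log2 difference of FPKM + 1 (horizontal axis), KO minus WT (left) and CD93-positive minus CD93-negative (right), with the 8 receptor genes as red lines, dashed lines at 2-fold and differences beyond 4 placed in the end bins. On the left 29.3% of genes lie outside the dashed lines, on the right 4.43%.

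Tnfrsf9 had 664 FPKM in CD93-positive and 309 FPKM in CD93-negative ILC3s, from 21173 and 9914 reads, the largest numbers of reads of the 8. The ratio was 2.15 (2.10 to 2.20) and the difference 1.10. Of measured genes with 10000 or more reads over the pair, 4.82% passed the 2-fold limit. The call depended on the scaling: Tnfrsf9 was under the 2-fold limit with the mean of the sums and with the common sum as in TPM, at 0.93 at the lowest.

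Tnfrsf18 (ENSMUSG00000041954.18) had 8.01 FPKM in CD93-positive and 19.98 FPKM in CD93-negative ILC3s, from 143 and 359 reads. It was 2.49-fold lower in CD93-positive cells (2.05 to 3.05). Tnfrsf4 had 2.50 in CD93-positive and 4.04 in CD93-negative cells from 40 and 65 reads, a ratio of 0.619 (0.407 to 0.933). Both neighbours thus had the lower value in CD93-positive cells. Their ratio, Tnfrsf18 to Tnfrsf4, was 3.20 in CD93-positive and 4.95 in CD93-negative cells, and the CD93-positive value was 0.647 times the other (0.409 to 1.03), an interval that includes 1. The ratio of Tnfrsf18 to Tnfrsf9, chosen after the values were seen, was 0.0121 in CD93-positive and 0.0647 in CD93-negative cells, 5.36-fold lower in CD93-positive cells (4.40 to 6.56).

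Cd27 (ENSMUSG00000030336.14) had 0.917 FPKM in CD93-positive and 4.04 FPKM in CD93-negative ILC3s, from 25 and 111 reads. It was 4.41-fold lower in CD93-positive cells (2.84 to 7.11), the largest fold of the 8 in either pair. Among measured genes with 100 to 1000 reads over the pair, where Cd27 and Tnfrsf18 lie, 4.55% passed the 2-fold limit. With a pseudocount of 5, Cd27 and Tnfrsf18 had differences of -0.61 and -0.94 and were under the limit. Both were past it with each of the 3 other scalings, and Cd27 did not reach a minimum of 5 FPKM.

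The receptors of TNF and TL1A had higher values in CD93-positive ILC3s or values that could not be told apart. Tnfrsf25 had 146 FPKM in CD93-positive and 79.7 FPKM in CD93-negative cells, a ratio of 1.84 (1.74 to 1.94), and Tnfrsf1b had 112 in CD93-positive and 77.0 in CD93-negative cells, a ratio of 1.46 (1.39 to 1.52). Of measured genes with 1000 to 10000 reads over the pair, where both lie, 3.74% passed the 2-fold limit. Tnfrsf1a had 20.2 in CD93-positive and 18.5 in CD93-negative cells (1.09, 0.969 to 1.22). For Tnfrsf14 the values were 25.6 in CD93-positive and 23.1 in CD93-negative cells (1.11, 0.965 to 1.28). The intervals of Tnfrsf1a and Tnfrsf14 include 1, and their differences of 0.12 and 0.14 were below 0 with the mean of the sums and with the common sum as in TPM. Unlike in the first pair, the ratio of Tnfrsf1b to Tnfrsf1a had an interval that did not include 1, with 5.56 in CD93-positive and 4.16 in CD93-negative cells, 1.34-fold higher in CD93-positive cells (1.18 to 1.52); whether the pairs differ in this was not tested.

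Genes listed as markers of ILC1s and NK cells, some of which carry CD27, had lower values in the CD93-positive library. Of 6 measured genes of that list, 4 passed 2-fold downwards and 0 upwards, with a summed level of 58.1 FPKM in CD93-positive and 171 FPKM in CD93-negative cells. All 7 measured ILC2 genes had differences below 0, and Il17rb passed 2-fold. The ILC2 list summed to 29.2 FPKM in CD93-positive and 41.5 FPKM in CD93-negative cells. Of 6 measured T cell genes, Cd3d and Cd3g passed 2-fold downwards and 0 upwards, with 5 differences below 0 and 1 above. The gene above 0 was Lat, with 17.4 FPKM in CD93-positive and 13.5 FPKM in CD93-negative cells (1.29, 1.14 to 1.46). Lat was also the most abundant of the T cell list, which summed to 22.6 FPKM in CD93-positive and 29.4 FPKM in CD93-negative cells. Of the regulatory T cell genes, Foxp3 had 0.522 FPKM in CD93-positive and 0.760 FPKM in CD93-negative cells, and Ctla4 had 27.7 in CD93-positive and 86.5 in CD93-negative cells. Il2ra of the same list had its higher value in CD93-positive cells, with 187 FPKM against 113 FPKM in CD93-negative cells (1.66, 1.61 to 1.71), and the list summed to 233 FPKM in CD93-positive and 230 FPKM in CD93-negative cells. Of 11 measured ILC3 genes, Il22 and Ccr6 passed 2-fold upwards and 0 downwards, at 4.79-fold and 8.30-fold higher in CD93-positive cells. Of genes of intestinal epithelium, all 4 measured were lower in CD93-positive cells and Epcam passed 2-fold, with 22.3 FPKM summed in CD93-positive and 39.0 FPKM in CD93-negative cells. The stromal genes Lum and Pdgfrb, the 2 measured of their list, passed 2-fold upwards, with 22.5 FPKM summed for the list in CD93-positive and 8.14 FPKM in CD93-negative cells. Whether the genes of these lists came from other cells or from subsets of the sorted ILC3s cannot be told in bulk libraries. The part of either in the lower Cd27 and Tnfrsf18 and the higher Tnfrsf9 was not tested.

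Genes of the proteins that the receptors bind had their higher value on the same side as the receptor gene in some cases and on the other side in others. Of 10 such genes, 7 were tabulated for KO and WT, with no value here for Tnfsf15, Tnfsf18 and Cd70. Of these, 4 passed 2-fold upwards in KO and 0 downwards, with a median of 1.35. Over all measured genes of this pair, 16.6% passed it upwards and 12.7% downwards, with a median of 0.01. Tnfsf9, the 4-1BBL gene, had 38.6 FPKM in KO and 14.6 FPKM in WT, while its receptor gene Tnfrsf9 was lower in KO. Tnfsf14, the LIGHT gene, had 24.8 in KO and 4.76 in WT, and its receptor gene Tnfrsf14 also had the higher value in KO. Btla had 2.76 FPKM in KO and is listed at 0 in the WT library. Lta, which encodes lymphotoxin alpha, had 20.9 in KO and 5.74 in WT, a ratio of 3.64 (3.12 to 4.26). Whole reads were not recovered for Tnfsf9, Tnfsf14 and Btla in this pair, so they have no interval. Ltb, the most abundant gene of the list, had 624 in KO and 599 in WT.

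In the CD93 pair, 3 of 6 measured binding partner genes, Tnf, Lta and Tnfsf4, passed 2-fold upwards in CD93-positive ILC3s and 0 downwards. The median of the 6 was 0.91. Tnfsf18 and Cd70, the ligand genes for Tnfrsf18 and Cd27, and Btla have no value here for this pair, and Tnfsf15 was not measured. Over all measured genes of this pair, 2.49% passed the limit upwards and 1.94% downwards, with a median of 0.04. The OX40L gene Tnfsf4 had 31.0 FPKM in CD93-positive and 14.3 FPKM in CD93-negative cells (2.17, 1.89 to 2.49), and its receptor gene Tnfrsf4 had the lower value in CD93-positive cells. With the mean of the sums or the common sum as in TPM, Tnfsf4 was under the limit. With a pseudocount of 5 the count was 1, Tnf alone, and with a 3-fold limit it was 0.

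Of 20 other genes of the receptor superfamily, 10 were tabulated and 8 measured in the first pair. Tnfrsf17, the gene of BCMA, a receptor of plasma cells, was at least 2-fold higher in KO, with 68 reads in KO against 0 in WT, which is at least 21.9-fold higher when 3 reads are set for the WT library. Of 6 measured B and plasma cell genes 3 also passed 2-fold upwards and 0 downwards, with a summed level of 255 FPKM in KO and 137 FPKM in WT and Mzb1 at 0 in WT; their part in the Tnfrsf17 value was not tested. In the second pair 15 were tabulated and 11 measured, and Tnfrsf21, which encodes the death receptor DR6, was at least 2-fold higher in CD93-positive cells, with 9.54 in CD93-positive and 3.32 in CD93-negative cells (2.87, 2.39 to 3.46). Tnfrsf26 was the most abundant of this list in both pairs, with 27.3 in KO and 14.7 in WT, and 10.2 in CD93-positive and 19.5 in CD93-negative cells. With a pseudocount of 5 neither Tnfrsf17 nor Tnfrsf21 was past 2-fold. The medians of this list were 0.18 for KO and WT and 0.35 for the CD93 pair, beside 0.01 and 0.04 over all measured genes. As reported, 1 gene of this list was past 2-fold in each pair, beside 29.3% and 4.43% of all measured genes. With a pseudocount of 0.1 the count was 3 in each pair. Tnfrsf11a and Tnfrsf13b were then added on the lower side in KO, and Tnfrsf11a and Tnfrsf12a on the higher side in CD93-positive cells. With the common sum as in TPM, the genes of this list past 2-fold numbered 4 in the first pair and 3 in the second. Added in the first were Tnfrsf26 on the higher side and Tnfrsf13b and Tnfrsf23 on the lower side in KO. Added in the second were Tnfrsf11a on the higher side and Tnfrsf26 on the lower side in CD93-positive cells. With this scaling 4840 of 13661 measured genes were past 2-fold in the first pair and 1022 of 11831 in the second.

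Signalling genes behind the receptors, 28 in all, were tabulated in both pairs. In KO ILC3s, 4 of 25 measured passed 2-fold upwards and 1 downwards (median -0.08), beside 16.6% upwards and 12.7% downwards over all measured genes, so neither share was above the background. With a pseudocount of 5, Traf2 and Rbck1 were past the limit and Tradd, Tab3 and Traf5 were not. With a pseudocount of 0.1, Traf3 and Chuk were also past it, on the lower side in KO. With the common sum as in TPM, Traf6 was also past it, on the higher side in KO. Traf2, an adaptor of TNFR2, OX40, 4-1BB and CD27, had 17.1 FPKM in KO and 5.21 FPKM in WT (3.29, 3.02 to 3.58). Tradd, the death domain adaptor of TNFR1 and DR3, had 8.02 in KO and 2.49 in WT (3.23, 2.63 to 3.99). Rbck1, a subunit of the linear ubiquitin ligase that acts at TNFR1, had 8.78 in KO and 1.20 in WT (7.32, 6.15 to 8.77). Tab3, which links these complexes to the kinase TAK1, had 2.69 in KO and 0.508 in WT. Traf5 was lower, with 1 read in KO and 399 in WT, 413-fold lower with an interval of 73.7 to 16353. Of measured genes with 100 to 1000 reads over the pair, where Traf5 lies, 40.8% passed the 2-fold limit. Counts at or near 0 in 1 library of this pair also occurred for Xcr1 (1 read in KO, 200 in WT) and, the other way, for Tnfrsf17 (68 in KO, 0 in WT). Tnfaip3, which encodes the NF-kB inhibitor A20, was the most abundant, with 318 in KO and 327 in WT.

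In the CD93 pair, 0 of the 28 signalling genes were at least 2-fold apart, beside 4.43% of all measured genes. A count of 0 is near that share for 28 genes. The median of the 28 was 0.00, beside 0.04 over all measured genes. The most abundant was again Tnfaip3, with 123 FPKM in CD93-positive and 232 FPKM in CD93-negative cells, 1.88-fold lower in CD93-positive cells (1.84 to 1.93); with the mean of the sums or the common sum as in TPM it was past the limit. Traf1 and Traf2, adaptors used by Tnfrsf9 and Tnfrsf1b, had values of 178 and 34.6 in CD93-positive and of 153 and 22.4 in CD93-negative cells.

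**Figure D4:**
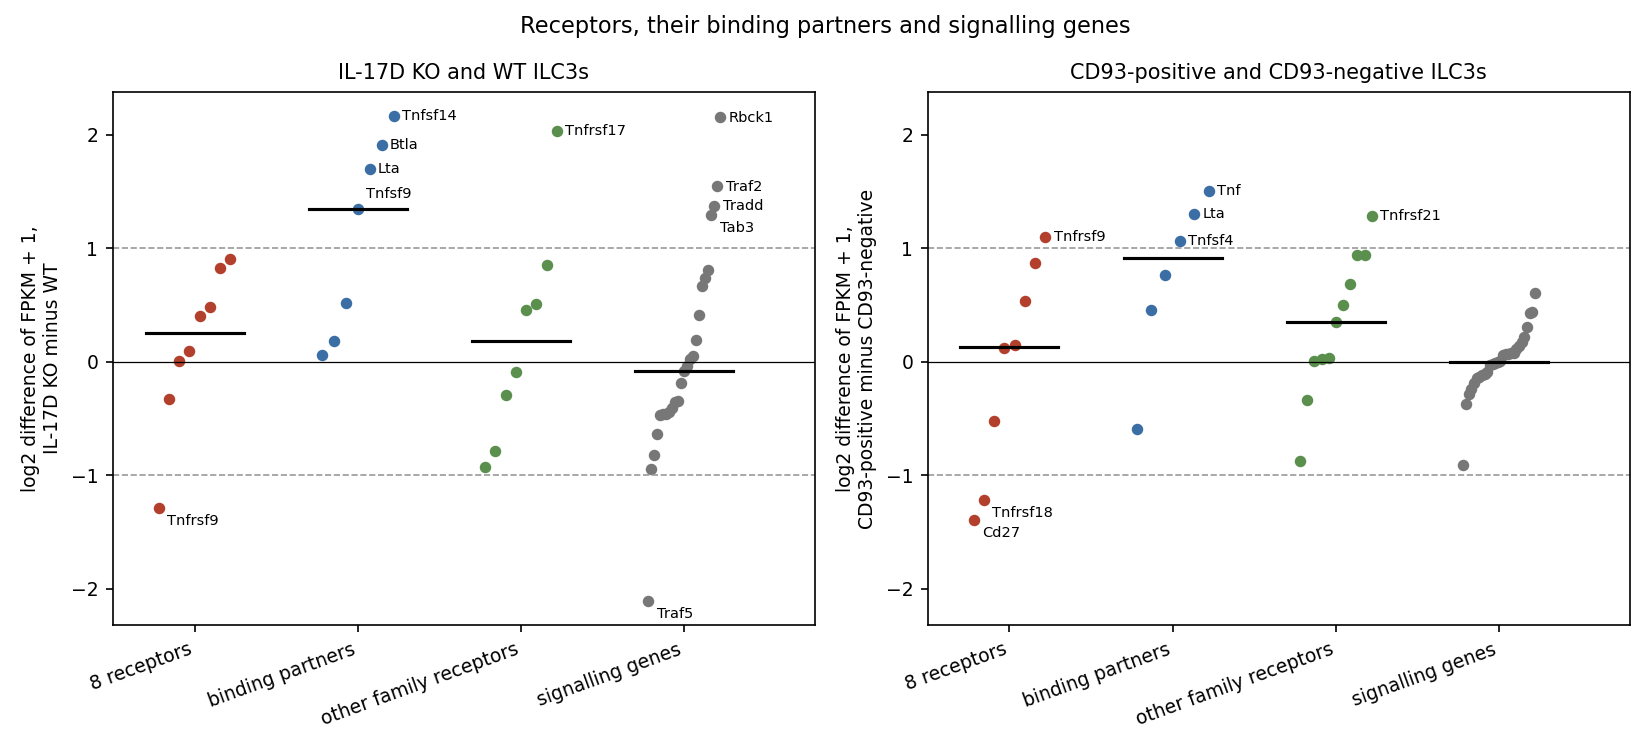
Log2 difference of FPKM + 1 (vertical axis) of measured genes in each list, KO minus WT (left) and CD93-positive minus CD93-negative (right). Each point is a gene, black bars are medians, dashed lines mark 2-fold, and genes past it are named. The 28 signalling genes on the right all lie between the dashed lines, at -0.91 to 0.60. Of all measured genes of that pair, 4.43% were at least 2-fold apart.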

How the data were processed

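RNA of sorted small intestinal ILC3s was measured in 4 libraries, 1 per group. The values are FPKM, computed and deposited by the authors. Per the submitters' processing notes, Bowtie2, featureCounts of Subread, edgeR and DESeq2 were used with the build mm10; the sources used here do not give their order, settings, versions or annotation. Each library's own table and the joint table of its pair held equal values in every row. Comparisons were made within a pair.

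Per library, multiplying FPKM by union exon length in GENCODE gave multiples of a fixed step, to within 0.02 reads, for 92.1% (KO), 91.9% (WT), 98.1% (CD93-positive) and 98.2% (CD93-negative) of values above 0 with a length; the step gives reads and scaling total. The step search was tested on simulated data. Ratio intervals are 95% Clopper-Pearson intervals from these reads, and intervals for a ratio of 2 genes set between libraries are exact conditional odds ratio intervals. Without molecular identifiers, reads of 1 PCR product are not independent molecules. A gene at 0 reads was set against 3 reads. Named from each list were the genes at least 2-fold apart at an FPKM of at least 1 and the most abundant gene; Traf1 and Traf2 in the CD93 pair, and the ratios of Tnfrsf4 and Tnfrsf18 to Tnfrsf9, were chosen after their values were seen. The 8 members and the lists were chosen with earlier results of these data known. Some marker genes are not reported here. Motifs were searched in RefSeq promoter windows. Python 3.11.15, pandas 2.3.3 and SciPy 1.17.1 were used. Alternatives were pseudocounts of 0.1 and 5, no filter or a minimum of 5 FPKM, a limit of 3-fold, and scaling to a common sum as in TPM, to the mean of the sums or to a median ratio of 1.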

Additional observations from a re-analysis of the deposited data

How the results depend on the processing

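No paired analysis was possible because each group has 1 library and the labels give no replicate numbers, and no library could be left out. In the KO and WT pair, the number of receptors at least 2-fold apart (1 as reported) was 0 with a pseudocount of 5 and with a 3-fold limit, 3 with the common sum as in TPM and 2 with the mean of the sums. In the CD93 pair (3 as reported) it was 1 with a pseudocount of 5 and 0 with a 3-fold limit. It was 2 with the common sum as in TPM, with the mean of the sums and with an FPKM of at least 5. Of all 12376 measured genes, 3627 were at least 2-fold apart in KO and WT as reported. There were 821 with a pseudocount of 5, 1519 with an FPKM of at least 5 and 1556 at 3-fold. With the common sum as in TPM, 4840 of 13661 measured genes were at least 2-fold apart, and with the mean of the sums 3739 of 12389. In the CD93 pair 448 were, against 783 with a pseudocount of 0.1, 169 with a pseudocount of 5 and 110 at 3-fold. The number for that pair was 337 with an FPKM of at least 5, 1022 with the common sum as in TPM and 469 with the mean of the sums. There, 56.2% of the counted genes were higher as reported, 28.4% with the common sum and 36.9% with the mean of the sums. All 8 receptors kept their direction in the KO and WT pair under the 7 settings that give a difference, and 6 of 8 did in the CD93 pair, the exceptions being Tnfrsf1a and Tnfrsf14. Fewest reads lay behind Cd27 and Tnfrsf4 in CD93-positive cells (25 and 40), which limits their precision.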
